A study of Mus musculus with 27 samples.

Results

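Respiratory complex I, also called NADH dehydrogenase, is built in mouse liver from subunits whose nuclear genes carry symbols that start with Nduf. The transcripts of these genes were followed in liver across 9 diets, with 27 mice each hybridised to its own Affymetrix oligonucleotide array and n = 3 mice per diet. Members were every gene whose symbol starts with Nduf but not with Ndufaf, which names assembly factors, taken from probes that the array's annotation assigns to exactly 1 symbol. The rule gave 36 genes on 78 probes, out of 18194 genes on 34958 such probes. The rule itself uses symbols and no measured value.

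All animals were male C57BL/6 mice, 10 weeks old per the labels, that ate their diet for 3 weeks. The control group ate the AIN-93M purified diet, and the other groups ate lab chow, a 60% fructose diet, a high-fat diet, a Western diet, an atherogenic diet, a diet deficient in essential fatty acids (EFA) or a diet low in n-3 fatty acids, or were diet-restricted. Lab chow was the natural ingredient diet of the animal facility. The Western diet, labelled as adjusted calories, drew 42% of its energy from fat and was rich in saturated fat and sucrose. The atherogenic diet added cholesterol and cholic acid, a bile acid, to fat and sucrose. By the study's methods, the EFA-deficient diet also held far more sucrose than the control diet, and its fat was all saturated. Its comparison with control therefore also holds differences in sugar and in kind of fat. Diet-restricted mice received 75% of the lab chow that freely fed mice ate, so that their comparison with control also holds any difference between chow and purified diet. The low n-3 arrays carry a title and a diet tag that name a DHA supplement, and only their description (7% sunflower oil) and the study's methods place them in the low n-3 group. The mice were not fasted, and livers were taken in the morning.

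Complex I is the entry point for electrons from NADH into the respiratory chain. It is shaped like an L. The matrix arm holds the N module, where NADH is oxidized, and the Q module, where ubiquinone is reduced, and the membrane arm pumps protons. A small set of core subunits carries out catalysis, of which those in the membrane are encoded by mitochondrial DNA, and many nuclear-encoded accessory subunits surround them. In liver the complex takes up the NADH released by the oxidation of fatty acids, amino acids and pyruvate.

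Of the 36 genes, 33 were detected, which means that at least 1 probe had a mean signal above log2(100) in at least 1 diet. A gene's value was the mean of such probes on the log2 scale, 62 probes in all for the 33 genes, and 6478 of the 18194 genes on the array passed the same filter. The members fell into 3 core subunits of the N module (Ndufv1, Ndufv2 and Ndufs1), 3 of the Q module (Ndufs3, Ndufs7 and Ndufs8), 8 accessory subunits of the matrix arm, the acyl carrier protein Ndufab1, 8 accessory subunits of the proximal membrane arm and 9 of the distal membrane arm. Ndufa4 carries the family name but is now regarded as a subunit of complex IV. Ndufa4l2, Ndufb1 and Ndufb4 stayed below the level, with highest array values of 2.69, 4.39 and 2.29. Another 10 Nduf probes list several symbols and were left out, 6 of them with signal above the level, and with them Ndufs6 and Ndufa11. Probes shared by Ndufb4 and its near copies were among those with signal, so that the low value of the single-symbol Ndufb4 probe does not describe that gene. Each array reports whole liver, so that fewer cells of a type and less RNA per cell cannot be told apart.

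The array medians of kept probes lay between 8.22 and 8.38, and no array shared its values with another. The liver arrays were checked for cell type markers: 9 of 9 measured hepatocyte genes were detected, while 0 of 4 cholangiocyte and 0 of 8 T and NK cell genes reached the level. Kupffer cell markers were detected for 10 of 13 genes, sinusoidal endothelial markers for 7 of 9 and stellate cell markers for 5 of 8.

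The promoters of 4 members are shown because Ndufb10, Ndufb3 and Ndufb8 had the largest decreases on the atherogenic diet and Ndufv1 is the NADH-binding core subunit that rose under diet restriction. The sequences come from RefSeq on build GRCm38.p6 and run 5′ to 3′ on the gene's strand from 250 bases before to 30 bases after the annotated start. Capitals mark matches to any of 7 short motifs on either strand.
Ndufb10, chr17:24724394-24724673, minus strand: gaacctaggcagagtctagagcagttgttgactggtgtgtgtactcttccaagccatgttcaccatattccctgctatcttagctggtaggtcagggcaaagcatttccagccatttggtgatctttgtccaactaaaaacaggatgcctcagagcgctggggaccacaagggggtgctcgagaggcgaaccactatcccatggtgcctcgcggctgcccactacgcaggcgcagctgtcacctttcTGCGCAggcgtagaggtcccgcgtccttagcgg
Ndufb3, chr1:58586147-58586426, plus strand: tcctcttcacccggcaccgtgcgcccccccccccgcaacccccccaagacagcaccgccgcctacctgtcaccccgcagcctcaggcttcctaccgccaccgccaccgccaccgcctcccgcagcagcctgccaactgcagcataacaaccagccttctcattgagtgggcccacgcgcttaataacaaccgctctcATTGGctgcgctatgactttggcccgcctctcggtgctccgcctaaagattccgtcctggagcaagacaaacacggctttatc
Ndufb8, chr19:44555413-44555692, minus strand: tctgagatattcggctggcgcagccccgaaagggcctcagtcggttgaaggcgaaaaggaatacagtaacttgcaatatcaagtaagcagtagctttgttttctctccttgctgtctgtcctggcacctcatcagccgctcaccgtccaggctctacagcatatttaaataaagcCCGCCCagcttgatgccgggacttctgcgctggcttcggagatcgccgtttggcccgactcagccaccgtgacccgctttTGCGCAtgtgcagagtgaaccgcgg
Ndufv1, chr19:4012726-4013005, minus strand: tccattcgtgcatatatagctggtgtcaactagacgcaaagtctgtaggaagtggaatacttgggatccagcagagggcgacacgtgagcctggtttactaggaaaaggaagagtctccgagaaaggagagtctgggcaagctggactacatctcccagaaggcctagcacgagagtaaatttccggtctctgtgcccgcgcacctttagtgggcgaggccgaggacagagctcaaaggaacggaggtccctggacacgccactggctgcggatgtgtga

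The motifs were the palindromic NRF1 site, TGCGCA (an NRF1 half-site, added after the windows had been seen, which may overlap the full site), CCGGAAG (ETS factors), AAGATGGC (YY1), GGGCGG (Sp factors), CCAAT (NF-Y) and TCAAGGTCA (ERR). NRF1, ETS factors of the GABP type, YY1 and ERR are known regulators of nuclear genes for respiratory chain subunits. In the 4 windows, TGCGCA lay at -3 to 3 from the start in Ndufb10 and at 6 to 11 in Ndufb8, the reverse of CCAAT at -53 to -49 in Ndufb3, and the reverse of GGGCGG at -75 to -70 in Ndufb8. The Ndufv1 window held none of these letters. RefSeq windows were at hand for 30 of the 33 detected members, with 32 windows in all, and not for Ndufa2, Ndufb9 and Ndufs1. The full NRF1 site was present in 4 of the 32 (12.5%) against 4.41% of all 32851 windows of that length, and TGCGCA in 9 (28.1%) against 7.39%. CCGGAAG was present in 4 (12.5%) against 8.45%, AAGATGGC in 2 (6.25%) against 2.29% and GGGCGG in 14 (43.8%) against 34.7%. CCAAT was present in 8 (25%) against 36.1%, and TCAAGGTCA in 0 against 0.417%. A match describes letters only, not a bound site.

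limma was fitted to the 27 arrays at once to set every diet against control. A gene was called higher or lower when its p was under 0.05 after Benjamini-Hochberg adjustment across the 6478 genes and 8 diets as a single family. All 8 comparisons share the 3 control arrays, so that they are not independent of each other. Log2 differences were converted to percent of the control signal, each with its 95% confidence interval (CI). Differences among the members were small: the 26 calls against control lay between 68.3% and 143% of control. Of the 33 members, 20 were called on at least 1 diet, namely 15 on 1 diet, 4 on 2 diets and Ndufs1 on 3. The standard error of a member's log2 difference lay between 0.0791 and 0.127. Mice were the replicates, and their number, 3 on each diet, limits precision.

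The median log2 difference of the members from the control mean was computed for each array. It was -0.25, -0.33 and -0.20 on the atherogenic arrays, against -0.01 to 0.03 on the control arrays. It was 0.08, 0.10 and 0.27 on the high-fructose arrays and 0.11, 0.07 and 0.14 on the low n-3 arrays. The atherogenic arrays lay below all others and the high-fructose and low n-3 arrays above the control arrays. The arrays of the other 5 diets lay between -0.10 and 0.07, and the median of all 6478 genes stayed between -0.07 and 0.04 on every array.

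**Figure D1:**
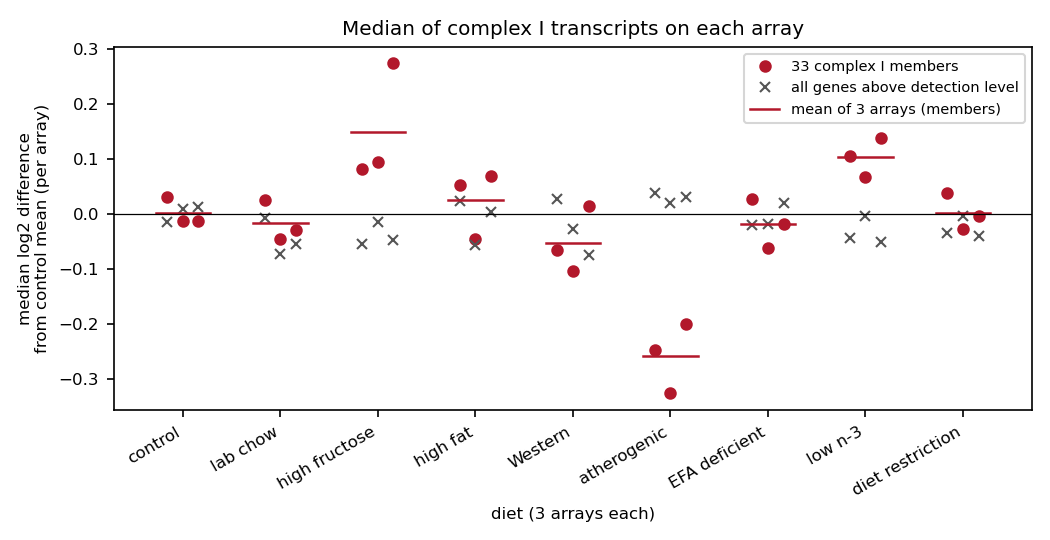
Median log2 difference from the control mean over the 33 detected members (red points) and over all 6478 detected genes (grey crosses) on each of the 27 arrays, by diet, with the mean of 3 arrays as a red line. The 3 atherogenic arrays sit between -0.33 and -0.20, while the crosses stay between -0.07 and 0.04.

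Complex I transcripts were lower in the livers of mice fed the atherogenic diet. Of the 33 members, 12 were called lower and 0 higher, where 5.88% of all genes were called lower and 9.03% higher on that diet. All 33 lay below the control mean (-0.55 to -0.02 on the log2 scale, median -0.24, which is 84.5% of control), while the median of all genes was 0.03. Of the 62 probes, 61 lay below control. In 20 of the 33 members every atherogenic array lay below every control array, which held for 15.4% of all genes. The distal membrane arm held 6 of the 12 calls among its 9 members (median -0.29).

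Ndufb10, a distal membrane arm subunit that faces the intermembrane space, measured 12.46, 12.50 and 12.51 (log2 signal) on the control arrays and 11.92, 11.79 and 12.11 on the atherogenic arrays. The groups were well apart, and Ndufb10 was decreased to 68.3% of control (CI 59.0 to 79.1, adjusted p = 0.00108 in limma). Ndufb3, a small subunit of the same arm, measured 11.12, 11.22 and 11.18 against 10.67, 10.67 and 10.74. The 3 atherogenic arrays lay closely together and below every array of the other diets, and Ndufb3 was decreased to 71.7% of control (CI 60.3 to 85.1, adjusted p = 0.0123 in limma). Ndufb8, whose protein is widely used as an indicator of assembled complex I, measured 12.48, 12.67 and 12.70 against 12.21, 12.08 and 12.17. Its lowest control array was the nearest to the atherogenic arrays, and it was decreased to 72.6% of control (CI 60.9 to 86.5, adjusted p = 0.0178 in limma). Ndufb5, a distal subunit read by 2 probes with log2 differences of -0.44 and -0.46, was decreased to 73.2% of control (CI 65.1 to 82.3, adjusted p = 0.00083 in limma). Ndufb9 and Ndufb11 completed the group at 81.5% and 82.1% of control. The 3 distal members that were not called, Ndufb2, Ndufb6 and Ndufb7, lay at 96.0%, 86.5% and 92.2%.

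In the matrix arm, 3 of 8 accessory subunits were called lower on the atherogenic diet, namely Ndufa7 (75.2% of control), Ndufs4 (78.2%) and Ndufa12 (78.9%). Ndufs4 is the accessory subunit whose loss is used as a mouse model of Leigh syndrome, and Ndufa12 sits at the joint of the N and Q modules. Ndufa12 measured 12.78, 12.78 and 12.68 on the control arrays and 12.49, 12.23 and 12.49 on the atherogenic arrays, with no overlap. Ndufab1, which carries acyl chains for mitochondrial lipoic acid synthesis and is also a structural subunit of complex I, measured 10.25, 10.15 and 10.16 against 9.83, 9.67 and 9.86. It lay at 75.9% of control (CI 66.3 to 86.8, adjusted p = 0.0082 in limma), but its 2 kept probes differed in size, at -0.53 for a dim probe (mean level 7.47) and -0.26 for a bright one (12.8). With no filter on low signal the fitted Ndufab1 difference turned to 0.14, so that its direction depends on the probes used. In the proximal membrane arm, 1 of 8 members was called lower, Ndufc2 at 77.7% of control.

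The core subunits lay below control on the atherogenic diet in all 6 cases, although only Ndufv2 was called. Ndufv2, an iron-sulphur subunit of the N module, measured 12.44, 12.42 and 12.44 against 12.17, 12.08 and 12.27 and was decreased to 83.5% of control (CI 74.5 to 93.6, adjusted p = 0.0401 in limma). The 5 others lay between 84.3% and 92.3% of control. In the Q module, where iron-sulphur clusters pass electrons to ubiquinone, Ndufs3 measured 11.95, 11.88 and 11.95 against 12.12, 12.17 and 12.23, Ndufs7 11.30, 11.23 and 11.27 against 11.58, 11.45 and 11.48, and Ndufs8 11.28, 11.25 and 11.33 against 11.49, 11.49 and 11.61. None of the atherogenic arrays overlapped control in these 3 genes, yet their differences did not pass the adjusted threshold. Across the 21 members that were not called, percent of control ran from 78.4% for Ndufa6 to 98.4%.

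The count of 12 depended on single arrays. It was 8 without control 1, 7 without control 2, without control 3 or without atherogenic 2, and 6 members (Ndufa7, Ndufab1, Ndufb10, Ndufb3, Ndufb5 and Ndufc2) were called whichever of the 6 arrays was left out. When only the control and atherogenic arrays were fitted, 3 members were called.

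**Figure D2:**
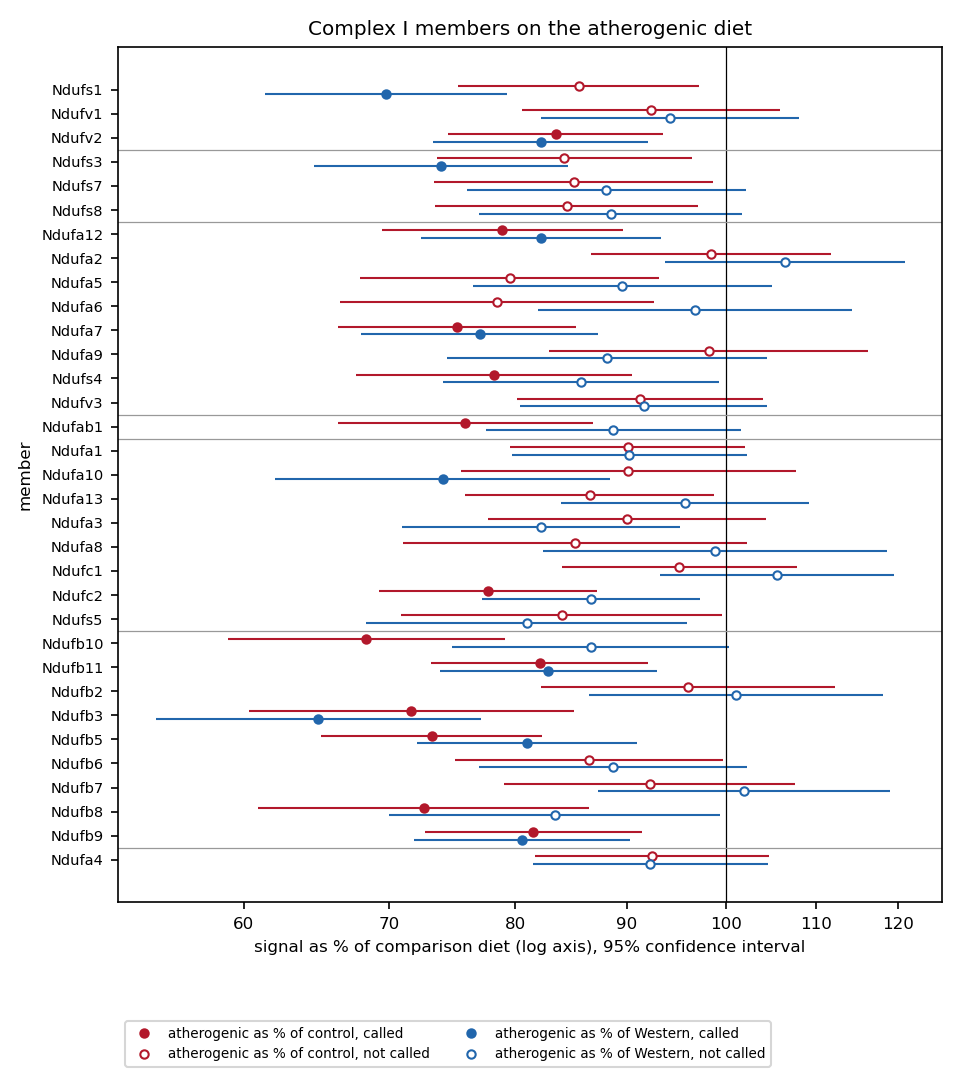
Signal on the atherogenic diet as percent of control (red) and as percent of the Western diet (blue) for the 33 detected members, ordered by place in the complex and separated by grey lines, with 95% confidence intervals from limma (n = 3 mice per diet). Filled points were called, and all 33 red points lie below 100% while 29 blue points do.

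The other parts of the respiratory chain were described with lists of known genes. On the atherogenic diet 2 of 4 complex II genes, 4 of 9 complex III genes, 2 of 9 complex IV genes and 4 of 15 complex V genes were called lower, and 0 in any of these lists was called higher. The list medians were -0.26, -0.23, -0.09 and -0.21 on the log2 scale. Named by size, they were Sdhd and Sdhb of complex II (79.2% and 81.4% of control), Uqcr10, Uqcr11 and Uqcrb of complex III (71.5%, 74.3% and 80.4%), Cox7a2 and Cox5b of complex IV (79.2% and 79.9%), and Atp5o, Atp5k and Atp5c1 of the ATP synthase (75.6%, 80.1% and 83.2%). Among 15 detected complex I assembly genes 3 were lower, Timmdc1 at 72.2%, Dmac1 at 75.0% and Ndufaf2, the factor that Ndufa12 replaces, at 75.2%. The mitochondrially encoded subunit ND5, the only one of its list detected, was not called (log2 difference -0.07). Of 16 genes that supply NADH, Got1 of the malate-aspartate shuttle and Dlat of pyruvate dehydrogenase were lower, at 39.3% and 47.8%. Among 36 detected cytosolic ribosomal protein genes, a list outside mitochondria, 11 were lower (median -0.23).

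Several measures moved beside this result. Kupffer cell markers were higher on the atherogenic diet, with 4 of 10 detected genes called higher and 0 lower, led by Cd5l at 449% of control, Lyz2 at 346% and C1qb at 262%. The summed Kupffer marker level was 13.2 to 14.0 (log2) on the atherogenic arrays against 11.8 to 12.3 on control arrays, while the summed hepatocyte marker level was 18.2 to 18.4 against 18.3 to 18.4 and 0 of 9 hepatocyte markers were called. Of 7 sinusoidal endothelial genes Clec4g was lower at 61.4%, and the median of 5 stellate genes ran from -1.39 to 0.69 between the atherogenic arrays. The difference between 3′ and 5′ probes of Gapdh, which grows as RNA is broken down, was 1.10 to 1.53 against 1.04 to 1.38. The value of 1.53 came from atherogenic 2, which also had the stellate median of -1.39 and the lowest members' median (-0.33). The part of cell composition and of RNA quality in the lower complex I signal was not tested.

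The Western diet resembles the atherogenic diet in fat and sucrose but holds no added cholic acid and less cholesterol, and these diets were also compared directly. Control arrays do not enter the difference itself, but they and all other arrays enter the estimate of spread behind its test. Of the 33 members, 10 were called lower and 0 higher on the atherogenic than on the Western diet, where 6.5% of all genes were lower and 11.3% higher. The median was -0.18 on the log2 scale (88.1% of Western), and 29 members lay below 0. The distal arm held 4 of the calls and the core subunits 3.

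Ndufb3 was again the lowest. It measured 10.67, 10.67 and 10.74 on the atherogenic arrays and 11.12, 11.32 and 11.51 on the Western arrays, which is 64.9% of Western (CI 54.6 to 77.1, adjusted p = 0.00103 in limma). Ndufs1, the largest iron-sulphur subunit of the N module, measured 10.07, 9.98 and 10.31 against 10.60, 10.76 and 10.56. It lay at 69.8% of Western (CI 61.4 to 79.3, adjusted p = 0.000361 in limma), a gap made of a value of 85.5% of control on one diet and 123% on the other. The Q module subunit Ndufs3 lay at 73.9% of Western (CI 64.6 to 84.6, adjusted p = 0.0026 in limma) and Ndufa10, a membrane arm subunit with a nucleoside kinase fold, at 74.1% (CI 62.0 to 88.4, adjusted p = 0.0175 in limma). ND5, encoded by mitochondrial DNA, lay at 74.8% of Western (CI 61.4 to 91.2, adjusted p = 0.0382 in limma). The other called members, Ndufa7, Ndufb9, Ndufb5, Ndufv2, Ndufa12 and Ndufb11, lay between 77.0% and 82.8%. Ndufb10, the lowest member against control, was not called here, at 86.6% of Western (CI 74.8 to 100.3). Kupffer markers differed in 9 of 10 genes, all higher on the atherogenic diet, with a summed level of 10.8 to 11.5 on the Western arrays. Gapdh 3′ minus 5′ values were 0.82 to 0.98 there. Their part in the difference was not tested. The count was 6 without Western 3 and 4 without atherogenic 2, and 2 when only the arrays of both diets were fitted.

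Under diet restriction the subunits did not move together. Against control 3 members were called higher and 1 lower, in a comparison where 13.5% of all genes were higher and 16% lower, so that the share of members called lay below that of all genes. The median was 0.03. The 2 largest increases belonged to core subunits of the N module, where NADH is oxidized.

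Ndufs1 measured 10.36, 10.31 and 10.36 on the control arrays and 10.85, 10.88 and 10.84 under diet restriction. The groups lay far apart for their spread, and Ndufs1 was increased to 143% of control (CI 126 to 162, adjusted p = 0.000554 in limma). Ndufv1, which binds NADH and the flavin that takes its electrons, measured 11.50, 11.46 and 11.51 against 12.15, 11.85 and 11.90. It was increased to 139% of control (CI 121 to 159, adjusted p = 0.00227 in limma), and its 3 probes gave log2 differences of 0.45 to 0.50. The third N module subunit, Ndufv2, lay at 105% (CI 93.8 to 118) with arrays of 12.47, 12.54 and 12.51. Ndufc1, a small membrane arm subunit, was increased to 122% (CI 108 to 138, adjusted p = 0.036 in limma), and Ndufa3, of the same arm, was decreased to 77.9% (CI 67.2 to 90.2, adjusted p = 0.0275 in limma). The Q module subunits Ndufs3, Ndufs7 and Ndufs8 lay at 99.4%, 111% and 97.8% and were not called. Counts were 2 without control 1, control 2 or diet restriction 3, and Ndufs1 and Ndufv1 were called whichever array was left out. With only the 6 arrays of these groups fitted, 1 member was called.

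Against lab chow, the food that the restricted mice ate in smaller amount, 6 members were called higher and 2 lower, where 19.2% of all genes were higher and 17.6% lower. The share of members called higher thus lay near that of all genes, and the share called lower lay below it. Ndufa8, a proximal membrane arm subunit, measured 11.31, 11.37 and 11.27 on the chow arrays and 11.70, 11.91 and 11.59 under restriction. It lay at 134% of chow (CI 111 to 160, adjusted p = 0.0131 in limma), with chow rather than restriction at the far end of all diets. Ndufs1 lay at 130.0% of chow (CI 114 to 148, adjusted p = 0.00213 in limma) and Ndufv1 at 127% (CI 111 to 146, adjusted p = 0.00637 in limma), so that both genes were called higher against either comparison diet. The other core subunit of the N module, Ndufv2, lay at 105% of chow and was not called. Ndufc2, Ndufc1 and Ndufab1 lay at 126%, 125% and 119.5%. Ndufa3 and Ndufv3, an accessory subunit of the N module, were lower at 76.4% (CI 65.9 to 88.5, adjusted p = 0.00501 in limma) and 82.8% (CI 72.6 to 94.3, adjusted p = 0.0223 in limma). In the fit of only these 6 arrays 4 members were called.

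Genes that feed or regulate the complex were also followed under diet restriction. Of 16 NADH supply genes 7 were higher than control and 0 lower (median 0.41), led by Got1 (276% of control), the aspartate-glutamate carrier Slc25a13 (181%) and malate dehydrogenase Mdh2 (174.6%). Against chow 9 were higher and 0 lower (median 0.43). Of 8 detected regulators of mitochondrial biogenesis 3 were higher than control, the coactivators Ppargc1a (615%) and Ppargc1b (271%) and the mitochondrial transcription factor Tfb2m (182%). Complex I assembly genes split, with 3 higher, among them Ndufaf4 (179.8%), and 3 lower, among them Timmdc1 (70.4%) and Lyrm2 (71.2%). Among cell type markers, 9 of 10 Kupffer genes lay below control, with Clec4f called at 33.2%, and the summed Kupffer level was 10.6 to 11.97. Stab1 of the sinusoidal endothelium was lower at 60.4%, Col3a1 of stellate cells at 22.7% and Fgb of hepatocytes at 75.2%, while Tat of hepatocytes was higher at 364%. Their part in these values was not tested.

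**Figure D3:**
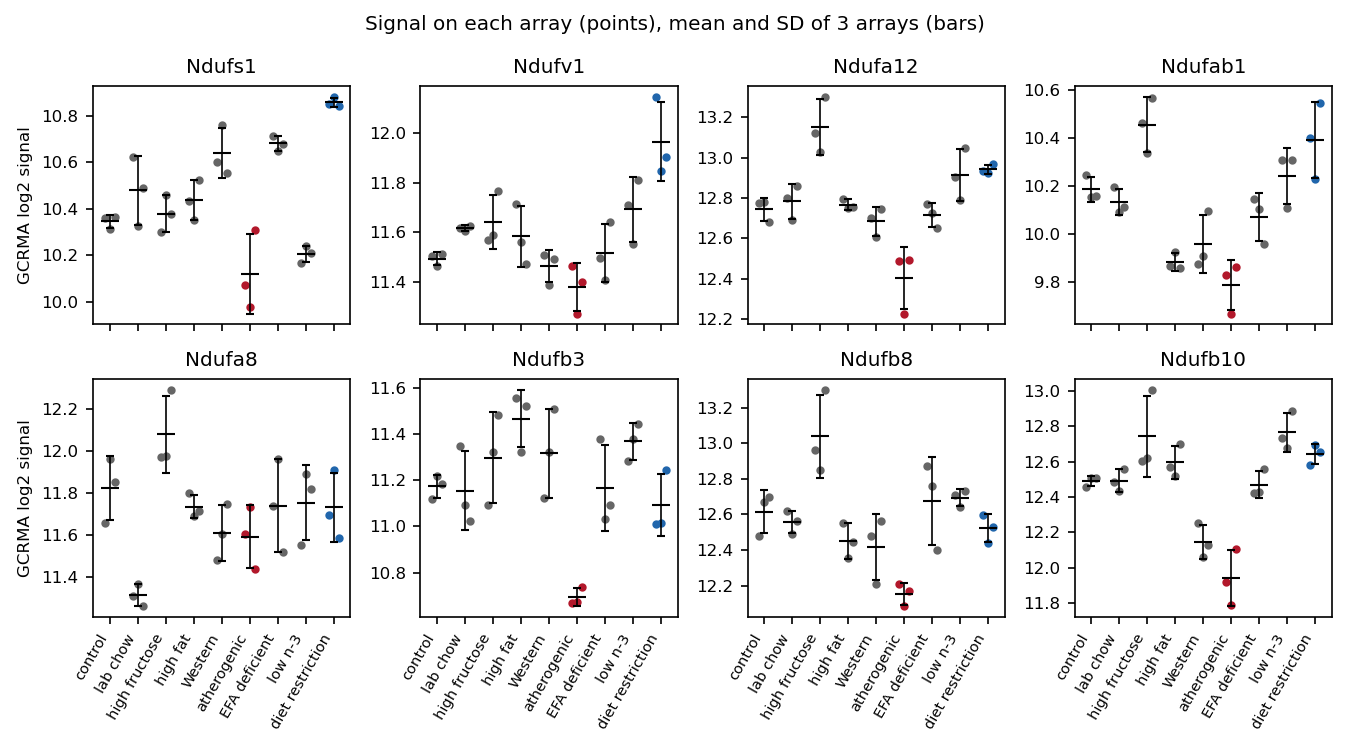
Log2 signal of the 8 members called on the most diets (ties by larger difference), on each of the 27 arrays, by diet, with mean and SD of 3 mice as bars. Atherogenic arrays are red and diet restriction arrays blue, and the axes differ between panels and do not start at 0. Ndufb3 is lowest on the atherogenic diet and Ndufs1 highest under diet restriction.

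On the high-fructose diet most subunits lay slightly above control. Of the 33 members 29 were above 0 (median 0.15, 111% of control), 2 were called higher and 0 lower, where 1.17% of all genes were higher and 2.73% lower. In 13 members every fructose array lay above every control array, which held for 9.23% of all genes. Ndufa12 measured 12.78, 12.78 and 12.68 on the control arrays and 13.12, 13.03 and 13.30 on the fructose arrays, and was increased to 133% of control (CI 117 to 151, adjusted p = 0.00448 in limma). Ndufb8 measured 12.48, 12.67 and 12.70 against 12.96, 12.85 and 13.30 and was increased to 134% (CI 113 to 160, adjusted p = 0.0299 in limma). In both genes the third fructose array was the highest, and on that array the members' median was 0.27 against 0.08 and 0.10 on the others. Without that array, without control 1 or without control 2 the count was 1, and Ndufa12 was called whichever array was left out. With only these 6 arrays fitted the count was 0. It was 5 with arrays centred on their medians and 1 with p adjusted within this diet.

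Among the other complexes on fructose, 2 of 9 complex III genes (Cyc1 at 134.5% and Uqcr10 at 129% of control), Cox5b of complex IV (124%) and Atp5a1 of the ATP synthase (124%) were called higher and 0 genes of complexes II to V lower. The assembly factor Foxred1 lay at 131%, and 0 of 16 NADH supply genes were called. All 10 detected Kupffer markers lay below control (median -0.27), with 0 called and 0 without overlap between arrays. The summed Kupffer level was 11.4 to 12.1 on the fructose arrays against 11.8 to 12.3 on the control arrays. The part of these markers was not tested.

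High-fructose and EFA-deficient livers, compared directly in the same fit of 27 arrays, differed in 3 members, all higher on fructose, where 0.71% of all genes were higher and 2.59% lower. Ndufa12 measured 12.77, 12.73 and 12.65 on the EFA-deficient arrays and lay at 135% of that diet on fructose (CI 119 to 153, adjusted p = 0.012 in limma). Ndufv3 lay at 132% (CI 116 to 150, adjusted p = 0.0203 in limma) and Ndufab1 at 131% (CI 114 to 149, adjusted p = 0.0288 in limma). The Ndufab1 value came from its dim probe, at 0.76, while the bright probe gave 0.01, and with no filter it was -0.090. The median of the 33 members was 0.18. Fructose was the sugar of one diet and sucrose of the other, beside their difference in fatty acids, and these cannot be told apart. Counts were 1 without fructose 1, EFA 2 or EFA 3, 0 without fructose 3, 0 when only these 6 arrays were fitted, 1 with no filter on low signal and 5 with arrays centred on their medians.

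On the high-fat diet calls went both ways, 1 higher and 3 lower, where 6% of all genes were higher and 3.33% lower. Ndufs3 measured 12.12, 12.17 and 12.23 on the control arrays and 12.50, 12.41 and 12.54 on the high-fat arrays and was increased to 124% of control (CI 108 to 142, adjusted p = 0.0385 in limma). Ndufa6, a subunit that anchors the acyl carrier protein, was decreased to 77.6% (CI 65.7 to 91.7, adjusted p = 0.0491 in limma). Ndufa13, also known as GRIM-19, was decreased to 81.9% (CI 71.8 to 93.4, adjusted p = 0.0495 in limma). Ndufab1 measured 9.87, 9.93 and 9.86 against 10.25, 10.15 and 10.16, or 81.1% (CI 70.9 to 92.8, adjusted p = 0.0441 in limma), but its dim probe gave -0.65 and its bright probe 0.042. All 4 adjusted p lay near the threshold. The count was 0 without any 1 control array, 1 without high-fat 1 or high-fat 2, 2 without high-fat 3, and 0 when only these arrays were fitted. It was 2 with arrays centred on their medians, with p adjusted within the diet or with no filter, and 1 after a second quantile normalization or with the brightest probe of each gene. Gapdh 3′ minus 5′ values were 0.78 to 0.94 on the high-fat arrays, lower than the 1.04 to 1.38 of control. Of 7 sinusoidal endothelial markers 1 was called lower, and of 9 hepatocyte markers 1 was called higher. Among 10 Kupffer and 5 stellate markers 0 were called. The part of RNA quality and of these markers was not tested. In the same livers 2 genes each of complex III (Uqcrc1 at 144% and Cyc1 at 127%) and of the other routes into ubiquinone (Chdh at 155% and Etfb at 131%) were higher, and 11 of 36 cytosolic ribosomal genes were lower.

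On the Western diet 1 member was higher and 1 lower, where 4.31% of all genes were higher and 4.48% lower. Ndufs1 was increased to 123% of control (CI 108 to 139, adjusted p = 0.0387 in limma). Ndufb10 measured 12.25, 12.06 and 12.13 against 12.46, 12.50 and 12.51 on control arrays and was decreased to 78.9% (CI 68.1 to 91.3, adjusted p = 0.0359 in limma). The median of the members was -0.05. Outside complex I, Etfdh and Etfa, which pass electrons from fatty acid oxidation to ubiquinone, and Chdh were higher at 150.3%, 136% and 143% of control, and 22 of 36 cytosolic ribosomal genes were lower. The count of 2 was 1 without Western 1 or Western 3 and 0 without Western 2, without any 1 control array or when only these arrays were fitted. It was 1 with arrays centred on their medians or with no filter. All 10 detected Kupffer markers lay lower on every Western array than on every control array (median -0.86), though 0 were called. The summed Kupffer level was 10.8 to 11.5 against 11.8 to 12.3. Stab1 of the sinusoidal endothelium was called lower at 64.9% of control. Gapdh 3′ minus 5′ values were 0.82 to 0.98 against 1.04 to 1.38, with no overlap. The part of these measures in the Western values was not tested.

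On the 3 other diets few or no members were called. On lab chow 0 members were higher and 1 lower, where 2.02% of all genes were higher and 2.19% lower. Ndufa8, a subunit with paired cysteine motifs, measured 11.66, 11.96 and 11.85 on the control arrays and 11.31, 11.37 and 11.27 on the chow arrays, below every array of the other diets, and was decreased to 70.3% of control (CI 58.5 to 84.3, adjusted p = 0.0123 in limma). It was not called without control 2. All 10 Kupffer (median -0.71), 5 of 5 stellate (median -0.55) and 6 of 7 sinusoidal endothelial markers lay below control on chow. Those called lower were the Kupffer marker Clec4f at 46.8% of control and the endothelial markers Stab2 and Stab1 at 62.6% and 62.8%. The part of these markers in the Ndufa8 value was not tested. On the EFA-deficient diet 1 member was higher and 0 lower, where 3.04% of all genes were higher and 2.47% lower. That member was Ndufs1, with 10.71, 10.65 and 10.68 against 10.36, 10.31 and 10.36, at 126% of control (CI 111 to 143, adjusted p = 0.0182 in limma). It was not called without control 2 or EFA 1, or when only these arrays were fitted. All 7 detected sinusoidal endothelial markers lay below control on this diet, with 0 called. Their median was -0.51 to -0.27 on the EFA-deficient arrays against -0.18 to 0.17 on the control arrays. Of 10 Kupffer markers 8 lay below control and 2 above. The part of these markers in the Ndufs1 value was not tested.

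On the low n-3 diet 0 members were called by limma, and by Dunnett's test as well, where 0.34% of all genes were higher and 0.726% lower. At an unadjusted p under 0.05, 3 members were higher and 0 lower, but the share of all genes at that threshold was not computed. Of the 33 members 25 lay above 0 (median 0.09, 107% of control), while the median of all genes was -0.03. All 10 Kupffer, 5 of 5 stellate and 6 of 7 sinusoidal endothelial markers lay below control on this diet, with 0 called. The endothelial median was -0.49 to -0.32 on the low n-3 arrays against -0.18 to 0.17 on the control arrays, without overlap, and the part of these markers was not tested. In 9 members every low n-3 array lay above every control array, which held for 5.85% of all genes. The highest were Ndufb7 at 122% (CI 105 to 143, adjusted p = 0.0949 in limma) and Ndufb10 at 121% (CI 104 to 140, adjusted p = 0.0978 in limma), with Ndufb10 at 12.73, 12.67 and 12.88. The 95% intervals of all members on this diet lay within 73.7% and 143% of control.

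**Figure D4:**
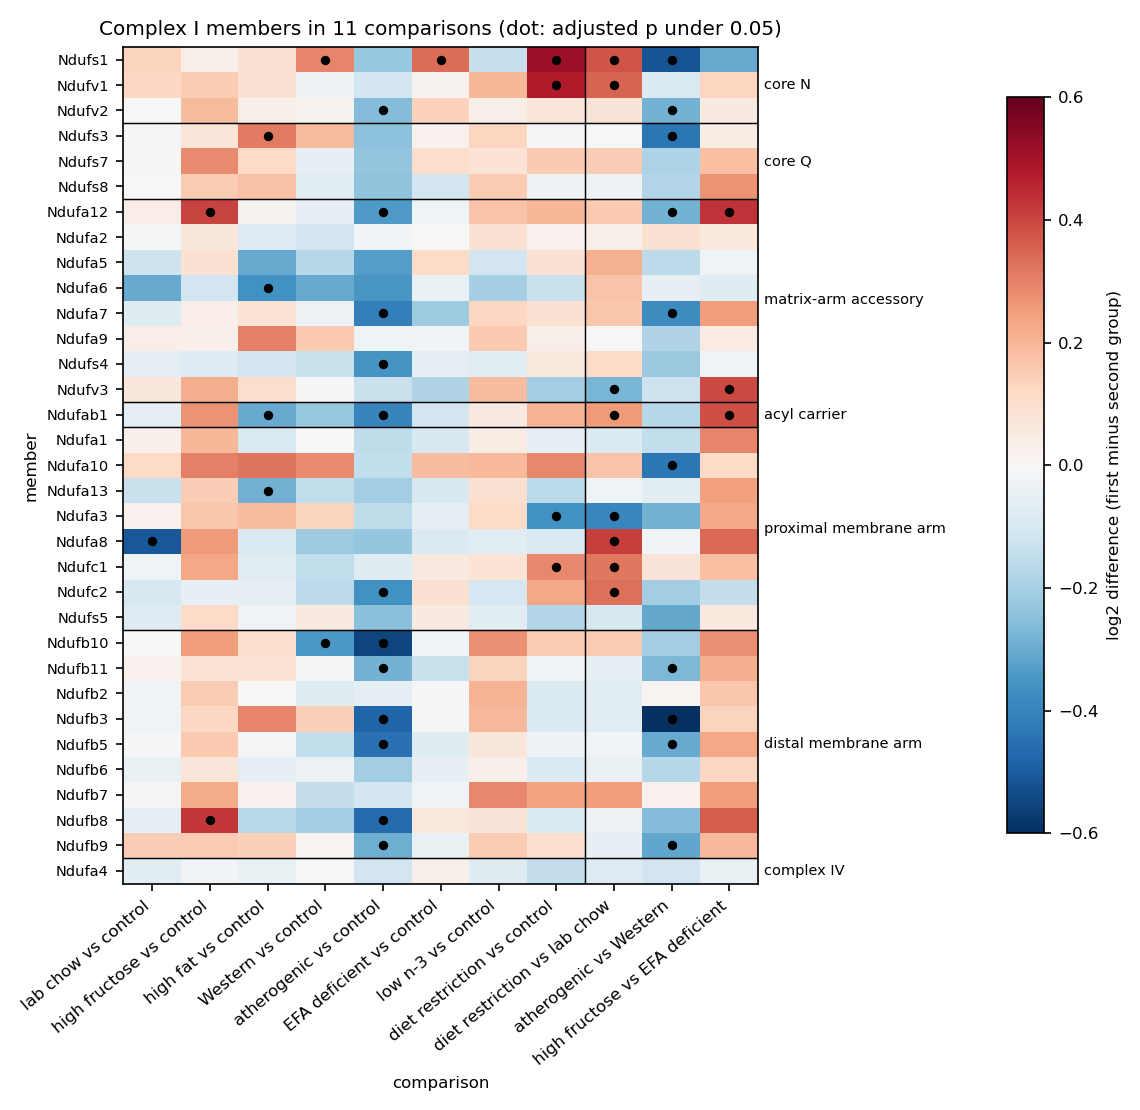
Log2 difference (colour) of the 33 detected members in 8 comparisons with control and 3 direct comparisons, with members ordered by place in the complex and black dots where the adjusted p was under 0.05. The atherogenic column is blue throughout with 12 dots, and the row of Ndufs1 holds 5 dots in 11 comparisons.

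Over all 11 comparisons 22 members were called at least once and 11 were not, namely the core subunits Ndufs7 and Ndufs8, the matrix arm subunits Ndufa2, Ndufa5 and Ndufa9, the membrane arm subunits Ndufa1, Ndufb2, Ndufb6, Ndufb7 and Ndufs5, and Ndufa4. Ndufa4, the complex IV subunit, stayed between 13.2 and 13.6 on every array. Ndufs1 was the most variable core subunit by calls, with 3 against control. Its diet means ran from 85.5% of control on the atherogenic diet through 90.8% on low n-3, 102% on fructose, 106.5% on high fat and 109.8% on chow to 123% on Western, 126% on EFA-deficient and 143% under restriction. The direct test set the atherogenic value below the Western one and the restriction value above chow, and neighbours in this order were not tested against each other. Ndufs1 was read by 1 probe, so that no second probe checks it.

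**Figure D5:**
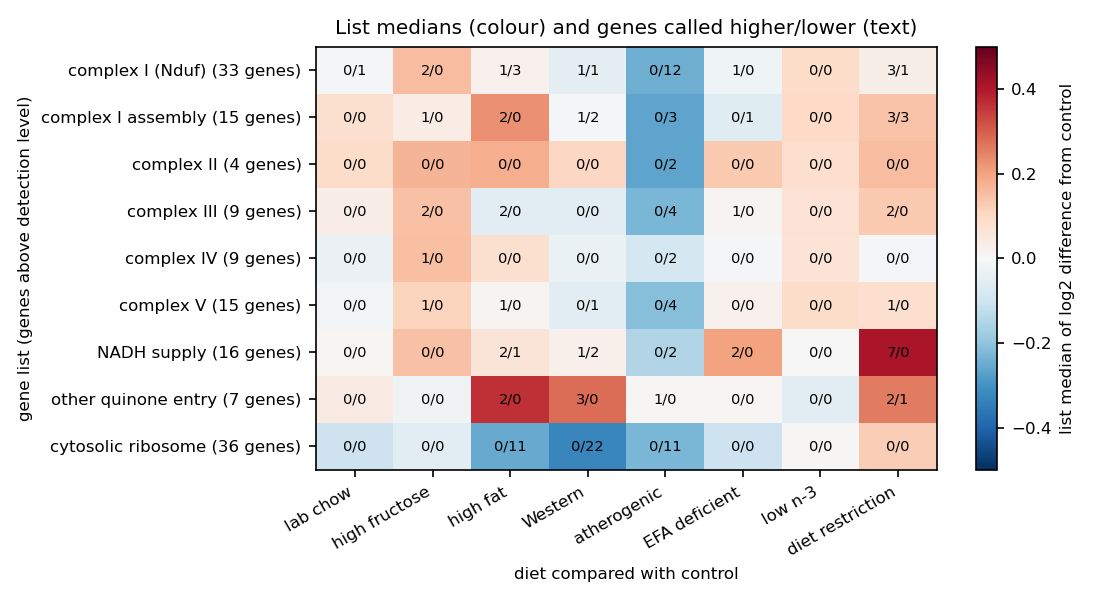
Median log2 difference from control (colour) of the 33 detected complex I members and 8 other gene lists on each diet, with the number of genes called higher and lower written in each cell. The complex I row reads 0/12 on the atherogenic diet, and the NADH supply row 7/0 under diet restriction.

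Probes of 1 gene can also bind transcripts of near-identical copies. Probe names that end in _s_at or _x_at mark this possibility, and among the kept probes they occur for Ndufa2, Ndufa3, Ndufa7, Ndufa12, Ndufa13, Ndufab1, Ndufb2, Ndufb11, Ndufc2, Ndufs4, Ndufs8, Ndufv1 and Ndufv2, whose values may be shared with such copies. On the atherogenic diet the 3 probes of Ndufa12 gave log2 differences of -0.51, -0.31 and -0.21, the 3 of Ndufb11 -0.25, -0.33 and -0.28, and the 3 of Ndufv2 -0.39, -0.15 and -0.24. All 5 probes of Ndufa7 were called lower there, at -0.35 to -0.50.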

How the data were processed

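Liver RNA was measured on 27 arrays, 3 per diet. Background correction and normalization were done by the authors with GCRMA. The deposited values are on a log2 scale and were taken unchanged. GCRMA and limma versions of the authors and any genome build are not given in the sources used here. Groups followed the labels. Gene symbols came from GEO's platform annotation, and genes with several probes were averaged over probes whose mean exceeded log2(100) in at least 1 diet. limma 3.58.1 (in R 4.3.3) was fitted over all 27 arrays with moderated statistics. P was adjusted by Benjamini and Hochberg over 6478 genes and 8 diets together, or within each of the 3 direct comparisons, at 0.05. The fit was tested on simulated data with 67, 67 and 66 genes changed by 0.3, 0.5 and 1 on the log2 scale. It called 1.49%, 17.9% and 78.8% of them and 0 unchanged genes. A member that was not called may therefore still differ. The simulation changed fewer genes than were called on the atherogenic diet. It also changed them on 1 diet only, while p was adjusted over all 8 diets together. These shares therefore need not hold for any diet. Full statistics were given for up to 4 called members per direction and comparison, array values for the 8 members called on most diets and the core subunits, and up to 3 called genes of each other list. Members and lists were chosen with earlier results of these data known. Alternatives changed the adjustment, filter, scaling, arrays fitted, replicate block, test and probe choice, and left out each array in turn. Python 3.11.15, pandas 2.3.3 and matplotlib 3.10.9 made plots and promoter counts. Arrays give no read depth, and their number limits precision.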

Additional observations from a re-analysis of the deposited data

How the results depend on the processing

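Counts of members called moved with several settings, and smaller moves of a count are not listed. P adjusted within each diet gave 1 for fructose (2 in the fit described) and 2 for high fat (4). With no filter on low signal the counts were 2 for high fat, 1 for Western (2) and 1 for fructose against EFA-deficient (3). Arrays centred on their medians gave 5 for fructose, 2 for high fat, 1 for Western and 5 for fructose against EFA-deficient. A second quantile normalization gave 1 for high fat, the brightest probe of each gene gave 1, and a fit per probe gave 2. Of the 47 calls, 32 were kept with no filter, 37 with the brightest probe, 40 after the second quantile normalization and 42 with centred arrays. With no filter, calls were also lost in comparisons not named here. Dunnett's test per gene, not adjusted across genes, gave 6 for fructose, 15 for atherogenic and 5 for diet restriction. Of all 6478 genes it called 344, 1159 and 2112 on these diets, so that under restriction the share of members lay below that of all genes. After Benjamini-Hochberg adjustment it called 1, 6 and 2 members, and 0 for chow, high fat, Western, EFA-deficient and low n-3. The fit of only the arrays compared gave 0 for fructose, high fat, Western, EFA-deficient and fructose against EFA-deficient, 3 for atherogenic (12), 1 for diet restriction (4), 4 for restriction against chow (8) and 2 for atherogenic against Western (10), where fewer arrays estimate the spread. It kept 11 of the 47 calls. The signs of Ndufab1 turned, to 0.14 on atherogenic against control and -0.090 on fructose against EFA-deficient with no filter, and to 0.042 on high fat with its brightest probe. No other call turned under any of these settings.

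Replicate numbers in the labels did not pair the mice: 6 of 33 correlations of deviations exceeded 0.1 (range -0.16 to 0.24), in 0 comparisons all. With the replicate block 46 of 47 calls held and the low n-3 count was 1 (0 without it). Leaving out each array in turn gave 0 to 1 for chow, 1 to 3 for fructose, 0 to 2 for high fat, 0 to 1 for Western, 7 to 12 for atherogenic, 0 to 1 for EFA-deficient, 0 for low n-3, 2 to 3 for diet restriction, 6 to 9 for restriction against chow, 4 to 10 for atherogenic against Western and 0 to 3 for fructose against EFA-deficient. Low signal of its dim probe limits the Ndufab1 values. The cause of the other moves was not tested.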
